A study of Mus musculus with 24 samples.

Results

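The genes of MHC class II antigen presentation, with 2 genes that accompany them in antigen-presenting cancer-associated fibroblasts (CAF), were followed in cultured pancreatic stellate cells (PSC), the resident fibroblast precursors of the pancreas. The 9 genes, Cd74, H2-Aa, H2-Ab1, H2-Eb1, H2-DMa, H2-DMb1, Ciita, Saa3 and Slpi, were picked by name and found by their Ensembl identifiers, and they are 9 of the 53801 genes with values. PSC came from pooled pancreata of wild-type C57BL/6J mice, and all 24 libraries were made from such cells. In co-culture they shared the medium, without contact, with KPC cells, a line of pancreatic tumour cells from 1 genetically engineered mouse with p48-Cre. In the standard model a microporous membrane and a gap of medium kept the cell types in separate compartments (the distant arrangement), and in the inverse model they grew on opposite faces of the same membrane (the close arrangement). Each model was sampled after 24 h and after 72 h, with PSC grown alone as controls, which gives 8 groups of 3 libraries. Libraries were prepared from 450 ng of RNA in the standard model and 120 ng in the inverse model. PSC and KPC cells were together for longer in the inverse model. Per the paper's methods, standard PSC and their controls were seeded in another medium, which was changed to the final one when time counting began. Inverse PSC and their controls were seeded in the final medium. RNA input, that duration and the seeding medium cannot be told apart from the model.

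MHC class II molecules are pairs of an alpha and a beta chain that carry peptides from endocytosed proteins to the surface of professional antigen-presenting cells, where CD4+ T cells read them. The pairs are assembled on the invariant chain, encoded by Cd74, which is then cut down by cathepsins until H2-DM exchanges its last fragment for a peptide. The whole set is switched on by Ciita, a coactivator that interferon gamma induces in many cell types and that binds to proteins seated on the X and Y boxes of class II promoters. In pancreatic tumours a class of fibroblasts that expresses Cd74 and class II chains, with Saa3 and Slpi, has been named antigen-presenting CAF, and macrophages, dendritic cells and B cells carry the same class II transcripts.

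Promoter sequences are shown first, because the X and Y boxes are where Ciita is recruited to class II genes, and Saa3 is shown beside them as a member that is no class II gene. RefSeq (build GRCm38.p6) held a promoter window of 250 bases before to 50 bases after the start for 6 of the 9 members. The 3 windows of H2-Aa, H2-Eb1 and H2-DMb1 and that of Saa3 are given 5′ to 3′ on the strand of the gene, with capitals marking matches to the X1 box (CTNGNAACT), the X2 box (TGACGTCA), the Y box (TGATTGG) or, in Saa3, a C/EBP motif (TTNNGCAA), each searched on both strands. The windows are at chr17:34287774-34288073 (minus strand), chr17:34305617-34305916 (plus strand), chr17:34152941-34153240 (plus strand) and chr7:46715627-46715926 (minus strand).
H2-Aa: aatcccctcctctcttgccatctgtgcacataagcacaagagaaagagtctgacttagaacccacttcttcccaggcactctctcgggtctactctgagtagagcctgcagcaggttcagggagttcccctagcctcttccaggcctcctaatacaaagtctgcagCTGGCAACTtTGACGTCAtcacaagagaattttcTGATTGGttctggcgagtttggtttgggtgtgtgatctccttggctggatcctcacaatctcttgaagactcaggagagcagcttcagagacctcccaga
H2-Eb1: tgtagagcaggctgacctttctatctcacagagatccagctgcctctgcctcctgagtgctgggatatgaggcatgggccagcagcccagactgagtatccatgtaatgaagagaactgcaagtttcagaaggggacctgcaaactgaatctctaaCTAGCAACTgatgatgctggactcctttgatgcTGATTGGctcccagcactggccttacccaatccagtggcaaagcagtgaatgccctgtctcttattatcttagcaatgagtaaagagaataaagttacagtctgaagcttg
H2-DMb1: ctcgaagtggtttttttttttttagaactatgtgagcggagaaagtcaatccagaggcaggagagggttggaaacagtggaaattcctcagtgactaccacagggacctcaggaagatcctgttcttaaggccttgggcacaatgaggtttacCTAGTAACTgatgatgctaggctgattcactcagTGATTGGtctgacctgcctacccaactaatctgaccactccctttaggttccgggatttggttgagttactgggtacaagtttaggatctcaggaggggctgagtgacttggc
Saa3: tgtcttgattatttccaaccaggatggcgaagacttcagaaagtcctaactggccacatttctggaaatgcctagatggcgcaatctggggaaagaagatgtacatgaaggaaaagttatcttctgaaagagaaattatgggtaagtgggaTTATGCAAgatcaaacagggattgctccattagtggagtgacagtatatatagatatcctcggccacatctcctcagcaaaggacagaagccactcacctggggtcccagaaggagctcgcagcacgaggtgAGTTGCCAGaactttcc

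The windows of H2-Aa, H2-Eb1 and H2-DMb1 each held an X1 box followed by a Y box on the strand of the gene. From the first base of the X1 box to that of the Y box there were 34 bases in H2-Aa, 33 in H2-Eb1 and 34 in H2-DMb1. The X1 box began 84, 94 and 97 bases before the start in these 3 genes, and H2-Aa also held an X2 box, with no overlap, 74 bases before the start. The X1 box was found in 4.1% of 32851 promoter windows of the same length, the Y box in 7.82%, the X2 box in 1.79% and both the X1 and the Y box in 0.35%. Saa3 had the C/EBP motif, found in 10.8% of windows, 99 bases before the start, and an X1 match on the other strand 33 bases after it. Slpi had a C/EBP match 241 bases before the start, and none of these letters stood in either window of H2-DMa. A match of letters is a description of the window and not a bound site.

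Libraries held between 15.9 M and 24.8 M counted fragments (median 18.9 M, where M is 1000000), as recovered from the smallest steps of the deposited FPKM, fragments per kilobase of gene and M fragments. Transcripts of stellate cells dominated every library. Summed over a list of 10 stellate cell markers they ranged from 20574 to 38232 FPKM, with Des, a filament protein of stellate cells, between 26.2 and 87.8 FPKM, while Gfap was at 0 in 12 libraries and Lrat, which makes retinyl esters, was at 0 in 21. A list of 20 macrophage markers was detected as well, and it set libraries apart by replicate number in the standard model. The 4 standard libraries numbered 2 summed to between 575 and 1851 FPKM over this list, and the other 8 to between 52.1 and 249. Sums of inverse libraries lay between 32.5 and 351 FPKM. Epithelial tumour cell transcripts were near 0 in control PSC of the inverse model (at most 0.370 FPKM summed over 8 genes), and higher in all 6 inverse co-cultures, between 1.92 and 43.0 FPKM at 24 h and between 1.5 and 7.78 at 72 h (0.334 to 2.41 FPKM in the 12 standard libraries). The highest sum was that of co-culture library 2 at 24 h, with Krt8 at 15.2, Krt18 at 11.7 and Krt19 at 11.6 FPKM. Krt7 (3.41 FPKM) and Cdh1 (0.948 FPKM) were also highest there. Epcam, Cldn4 and Esrp1 did not exceed 0.123 FPKM in any library, and Epcam and Cldn4 were highest in control libraries. Of the 8 genes 3 were at 0 in all inverse co-cultures at 72 h and 6 in all inverse controls of that time. Mesothelial markers, a list that shares Krt8, Krt18 and Krt19 with the epithelial one, summed to between 29.4 and 95.1 FPKM in all libraries. Summed B cell markers did not exceed 0.572 FPKM, T cell markers 1.99 and endothelial markers 2.44, and the 10 dendritic cell markers summed to between 2.18 and 13.6 FPKM, led by Zbtb46, with Cd209a and Siglech at 0 in all 24 libraries.

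**Figure D1:**
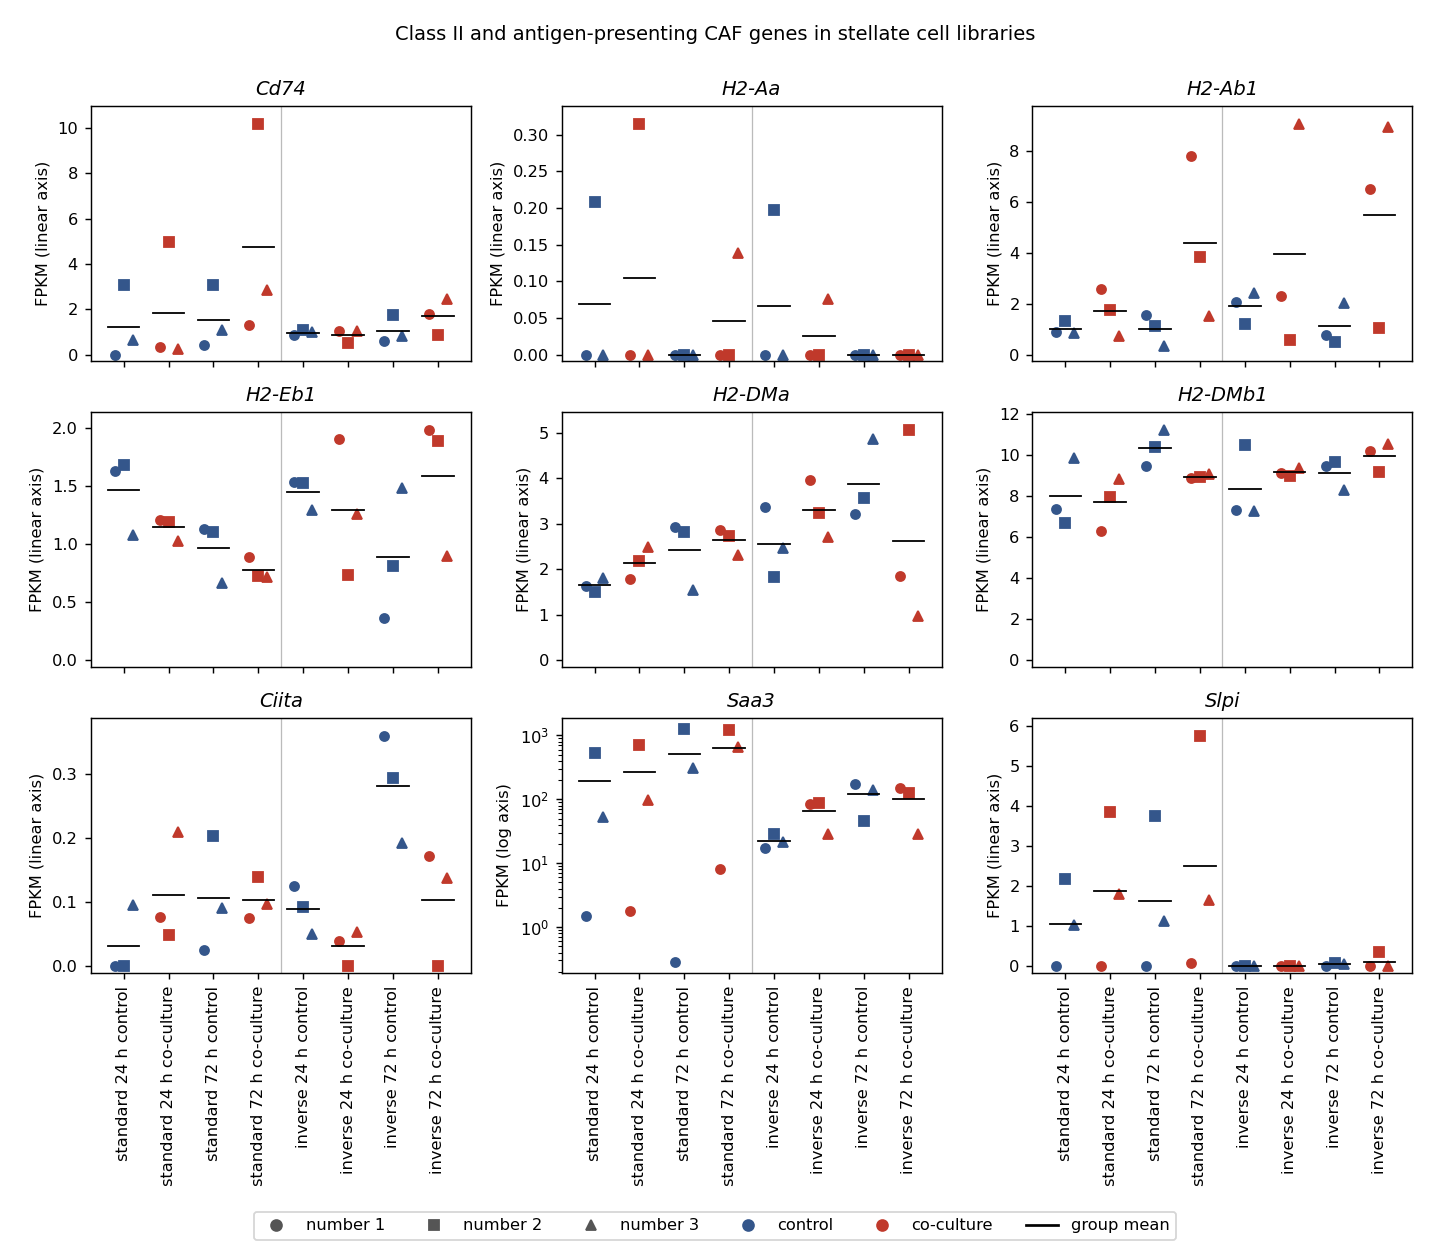
Level of each of the 9 genes in all 24 libraries, in FPKM (linear axes, log axis for Saa3), by group on the horizontal axis, with symbols for the replicate number, blue for control PSC, red for co-culture and a bar for the group mean. Within each of the 4 standard groups Cd74, Saa3 and Slpi are highest in the library numbered 2, H2-DMb1 stays between 6.29 and 11.2 FPKM, and H2-Aa and Ciita stay below 0.4 FPKM throughout.

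The class II chains were low in every group and unequal among themselves. H2-Aa, the alpha chain of I-A (chromosome 17, 34282744 to 34287823, minus strand, GRCm38), was at 0 in 19 of 24 libraries. Its 5 other values were 0.209 FPKM in standard control 2 and 0.314 in standard co-culture 2 at 24 h, 0.139 in standard co-culture 3 at 72 h, and 0.197 in inverse control 2 and 0.0760 in inverse co-culture 3 at 24 h. No library held more than 6 fragments of it, and the 3 fragments that a count of 0 allows correspond to between 0.148 and 0.230 FPKM, so a difference in H2-Aa was not detectable at this depth. These limits cover counting error only.

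H2-Ab1, the beta chain that pairs with H2-Aa (chromosome 17, 34257689 to 34269419, plus strand), was above 0 in all 24 libraries, on 5 to 131 fragments each, and ranged from 0.337 to 9.03 FPKM. In the standard model at 24 h it measured 0.897, 1.31 and 0.852 FPKM in control libraries 1, 2 and 3 and 2.58, 1.75 and 0.748 in co-culture. At 72 h the controls were at 1.54, 1.11 and 0.337 FPKM and the co-cultures at 7.81, 3.84 and 1.52. The lowest co-culture library fell just short of the highest control there, although each co-culture exceeded the control of its own number. In the inverse model at 24 h the controls measured 2.08, 1.18 and 2.41 FPKM and the co-cultures 2.29, 0.557 and 9.03, so that the co-cultures held both the lowest and the highest value. At 72 h the inverse controls were at 0.772, 0.508 and 2.03 FPKM and the co-cultures at 6.50, 1.03 and 8.94. Inverse co-culture library 2 was the lowest of its group at both times. Levels of H2-Aa and H2-Ab1 were thus far apart on this scale per length, with means over all libraries of 0.0390 and 2.57 FPKM.

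H2-Eb1, the beta chain of I-E (chromosome 17, 34305867 to 34316674, plus strand), lay between 0.365 and 1.98 FPKM, on 10 to 49 fragments. Its alpha partner is a pseudogene in the C57BL/6 strain, and H2-Ea-ps was at 0 in all 24 libraries. Standard libraries measured 1.63, 1.68 and 1.08 FPKM (control) and 1.21, 1.19 and 1.03 (co-culture) at 24 h, and 1.13, 1.10 and 0.670 against 0.891, 0.727 and 0.720 at 72 h. Inverse libraries measured 1.54, 1.53 and 1.30 against 1.91, 0.737 and 1.26 at 24 h, and 0.365, 0.816 and 1.49 against 1.98, 1.89 and 0.904 at 72 h. Groups overlapped in each of these 4 pairs. The other class II chains and accessory chains, H2-Eb2, H2-DMb2, H2-Oa and H2-Ob, were at 0 in 20 or more libraries each and did not exceed 0.158 FPKM.

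Cd74, the invariant chain (chromosome 18, 60803848 to 60812652, plus strand), ranged from 0 to 10.2 FPKM, on at most 250 fragments. In the standard model it measured 0, 3.05 and 0.630 FPKM in control libraries 1, 2 and 3 at 24 h and 0.321, 4.95 and 0.258 in co-culture. At 72 h it measured 0.406, 3.09 and 1.08 FPKM in controls and 1.31, 10.2 and 2.83 in co-culture. Library 2 was the highest of its group in all 4 standard groups, and the groups overlapped at both times. The inverse libraries were closer together, at 0.853, 1.07 and 0.981 FPKM (control) and 1.04, 0.494 and 1.03 (co-culture) at 24 h, and 0.588, 1.76 and 0.823 against 1.81, 0.867 and 2.47 at 72 h.

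The chains of the peptide editor H2-DM were the most evenly expressed members. H2-DMb1 (chromosome 17, 34153072 to 34160230, plus strand) was present in all libraries at 6.29 to 11.2 FPKM, a 1.78-fold range, and it was the only class II member with more than 100 fragments in every library (122 to 272). Its highest values were 9.48, 10.4 and 11.2 FPKM in the standard controls at 72 h, against 8.86, 8.93 and 9.06 in co-culture, and these groups did not overlap. H2-DMa (chromosome 17, 34119541 to 34139101, plus strand) ranged from 0.971 to 5.05 FPKM, with both extremes in inverse co-culture at 72 h, where libraries 1, 2 and 3 measured 1.86, 5.05 and 0.971 FPKM against 3.22, 3.56 and 4.87 in controls. Exons of H2-DMa overlap those of Brd2 on the opposite strand, as those of Ciita overlap Dexi. Counting disregarded the strand, so a fragment within these overlaps could not be assigned to either gene.

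Ciita (chromosome 16, 10480059 to 10528418, plus strand) did not exceed 0.360 FPKM, and between 0 and 29 fragments were counted. In the inverse model its values were 0.126, 0.0926 and 0.0508 FPKM in controls and 0.0397, 0 and 0.0535 in co-culture at 24 h, and 0.360, 0.294 and 0.192 against 0.172, 0 and 0.138 at 72 h. Standard libraries lay between 0 and 0.210 FPKM, and 2 of 3 controls at 24 h were at 0. The inverse controls at 72 h were higher than all the inverse co-cultures of that time and than all the inverse controls at 24 h.

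Saa3, an acute-phase serum amyloid A of fibroblasts and macrophages (chromosome 7, 46711998 to 46715700, minus strand), spanned the widest range of the 9 genes, 4323-fold from 0.289 to 1251 FPKM. Across standard libraries it followed the replicate number, with 1.5, 532 and 52.7 FPKM in control libraries 1, 2 and 3 at 24 h, 1.77, 709 and 95.9 in co-culture, 0.289, 1251 and 311 in controls at 72 h and 8.23, 1227 and 656 in co-culture. Library 1 was lowest and library 2 highest in each of these 4 groups. Inverse libraries lay between these extremes, at 17.3, 29.2 and 21.5 FPKM (control) and 83.8, 88.0 and 28.5 (co-culture) at 24 h, and 173, 45.1 and 141 against 149, 124 and 29.0 at 72 h. The related Saa1, Saa2 and Saa4 stayed below 1 FPKM in all libraries (at most 0.931).

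Slpi, an inhibitor of leukocyte serine proteases (chromosome 2, 164354070 to 164389095, minus strand), had the same order in the standard model as Saa3, at a lower level. It measured 0, 2.17 and 1.02 FPKM in standard controls 1, 2 and 3 and 0, 3.85 and 1.79 in co-culture at 24 h, and 0, 3.74 and 1.13 against 0.0805, 5.75 and 1.65 at 72 h. Of the 12 inverse libraries 9 were at 0 and the others at most at 0.351 FPKM. In the order of group means of each of the 9 genes, every pair of neighbouring groups overlapped in their libraries.

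Since library 2 held the most Cd74, Saa3 and Slpi in all 4 standard groups, macrophage transcripts were compared with the members library by library. Csf1r, the receptor that macrophages need to survive, was at 11.1, 10.7, 23.1 and 10.6 FPKM in the 4 standard libraries numbered 2 and between 1.98 and 4.90 in the other 8. Adgre1, which encodes F4/80, was at 7.85, 5.60, 16.0 and 8.81 FPKM in those 4 and between 0.331 and 2.82 in the others. Lyz2, the myeloid lysozyme, was at 369, 266, 915 and 542 FPKM in those 4 and between 26.3 and 133 in the others. Within each standard group Cd74, Saa3 and Slpi were therefore highest in the same library as these macrophage transcripts, although Saa3 in co-culture 3 at 72 h (656 FPKM) exceeded its level in control 2 at 24 h (532 FPKM). The part of the macrophage transcripts in these levels was not tested. In bulk RNA, fewer cells of a type and less RNA per cell cannot be told apart.

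**Figure D2:**
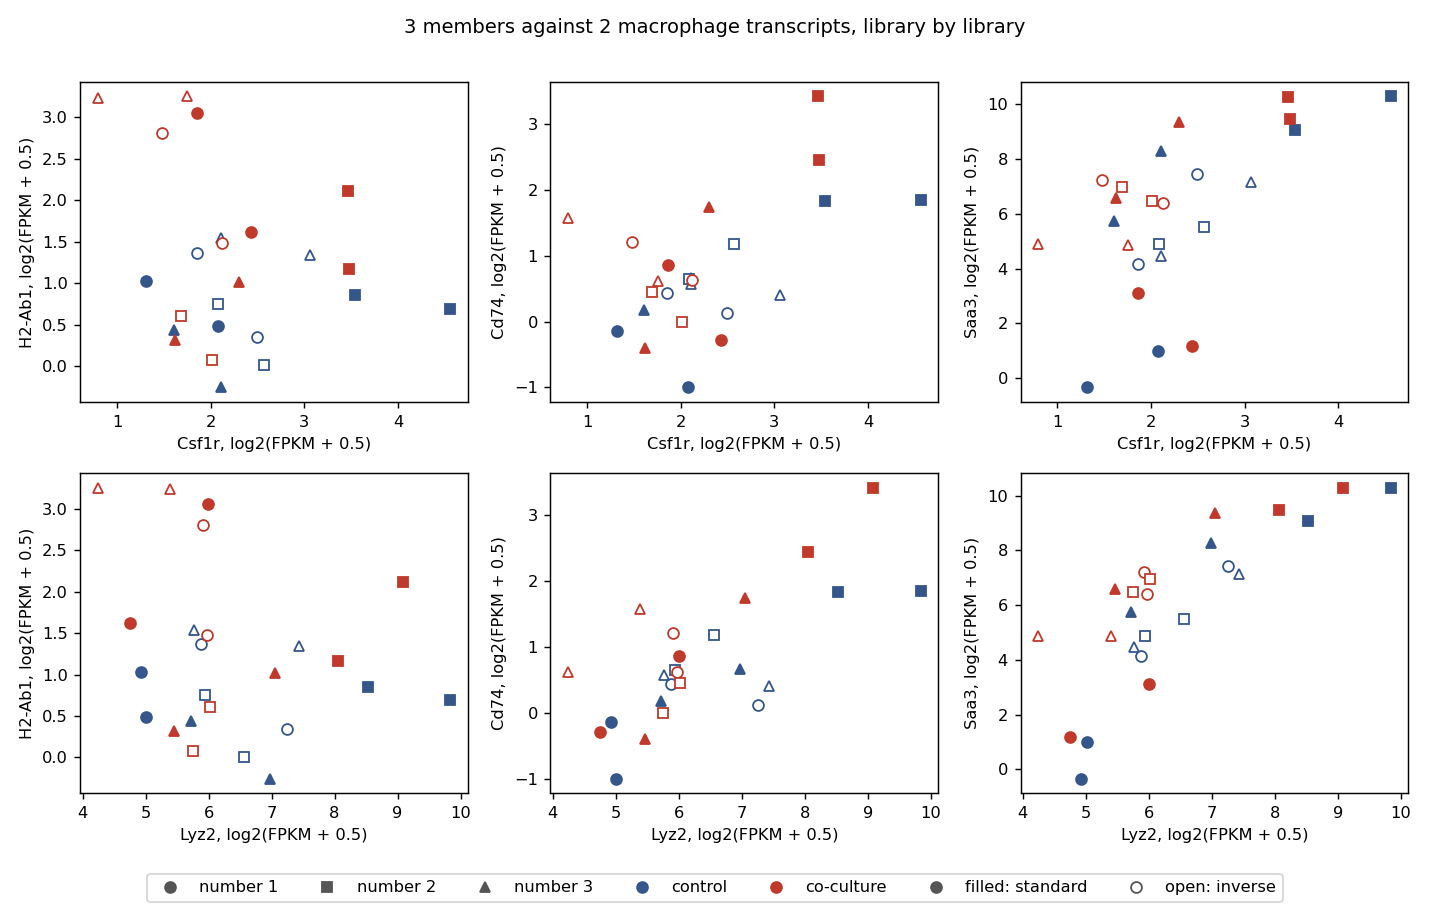
H2-Ab1, Cd74 and Saa3 (vertical axes) against Csf1r (upper row) and Lyz2 (lower row), all as log2(FPKM + 0.5), with 1 point for each of 24 libraries, filled for the standard and open for the inverse model, red for co-culture, with symbols for the replicate number. Within each standard group Cd74 and Saa3 lie highest in library 2 (filled squares), which has the most Csf1r and Lyz2, and the highest H2-Ab1 lies at low Csf1r.

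As a description over libraries that share replicate numbers, media and depth, Cd74 had a Pearson r of 0.73 (Spearman rho 0.66) with Lyz2 over all 24 libraries on the log2(FPKM + 0.5) scale. Within the 12 standard libraries r was 0.88, within the 12 inverse libraries it was -0.25, and without the 4 standard libraries numbered 2 it was 0.38 over 20. With Csf1r the values for Cd74 were 0.53, 0.73, -0.53 and -0.12 in the same order. Saa3 had an r of 0.81 with Lyz2 (rho 0.82), 0.87 in the standard and 0.58 in the inverse libraries, and 0.71 over the 20. With Csf1r its r was 0.59 over 24 libraries, 0.68 in the standard and 0.32 in the inverse libraries and 0.23 over the 20, and with Adgre1 it was 0.67, 0.80, 0.25 and 0.38. For Slpi and Adgre1 r was 0.75 over 24 libraries, 0.83 in the standard libraries and 0.26 over the 20.

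H2-Ab1 had a different relation to these transcripts. Its r with Csf1r was -0.25 over 24 libraries (rho -0.14), 0.09 within the standard and -0.63 within the inverse model, and with Adgre1 it was -0.33, -0.11 and -0.56. In the libraries with the most H2-Ab1, inverse co-culture 3 at 24 h (9.03 FPKM) and at 72 h (8.94 FPKM), Csf1r was at 2.87 and 1.24 FPKM and Adgre1 at 0.0390 and 0.454. The smallest macrophage sums of the inverse model, 32.5 and 75.8 FPKM, were those of the same pair of libraries. Standard control 2 at 72 h, with the most Csf1r of all 24 (23.1 FPKM), held 1.11 FPKM of H2-Ab1 and 3.09 of Cd74. Cd74 and H2-Ab1 themselves had an r of 0.30 over 24 libraries, 0.34 within the standard and 0.56 within the inverse model. Without the 4 standard libraries numbered 2 it was 0.42.

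The first question of the design was what distant tumour cells changed in PSC. Differences were tested as log2(FPKM + 0.5) of co-culture minus control, on genes above 1 FPKM in at least 3 of the 6 libraries compared, with limma's moderated test and Benjamini-Hochberg adjustment over all genes tested. At 24 h of standard co-culture, 6 members were tested and 0 passed an adjusted p under 0.05, as did 0 of all 12859 genes (0.0%, and 371 or 2.89% had an unadjusted p under 0.05, none of them a member). limma's voom on the recovered fragments also called 0 members in this and in each of the other 3 co-culture comparisons. H2-Ab1 differed by 0.45 (SE 0.40), H2-DMa by 0.29 (SE 0.23) and Saa3 by 0.48 (SE 2.70). With the replicate number as a block, which reads each co-culture against the control of its own number, 157 genes but still 0 members passed in limma, and Saa3 had a difference of 0.48 with an SE of 0.13 (adjusted p = 0.162).

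At 72 h of standard co-culture, H2-Ab1 and Cd74 had the largest differences of the class II members, and neither passed. H2-Ab1 was higher by 1.58 (SE 0.59, limma adjusted p = 0.767) and Cd74 by 1.22 (SE 0.77, adjusted p = 0.800), and 0 of 6 members tested and 0 of 12863 genes passed (0.0%, with 800 or 6.22% at an unadjusted p under 0.05, of which H2-Ab1 was the only member). Read number by number, co-culture held 5.06, 3.45 and 4.51 times the H2-Ab1 of the control and 3.24, 3.29 and 2.63 times its Cd74. For Csf1r these ratios were 1.58, 0.457 and 1.17, and for Lyz2 they were 2.13, 0.592 and 1.05. For Adgre1 they were 0.548, 0.551 and 0.512, and at 24 h 0.749, 0.714 and 0.439. With the block, which left 1 gene of all tested past the threshold, H2-Ab1 had an adjusted p of 0.217 (SE 0.26) and Cd74 one of 0.288 (SE 0.24) in limma. Saa3 was 28.5 times its control in number 1, where both values were below 10 FPKM, 0.981 times in number 2 and 2.11 times in number 3. H2-DMb1 was lower in all 3 co-culture libraries than in all controls (mean 8.95 ± 0.101 against 10.4 ± 0.863 FPKM, SD, n = 3), as were 9.78% of genes tested, and the fitted difference of -0.20 (SE 0.13) did not pass.

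The same question was put to close tumour cells, and again no member passed the threshold. At 24 h of inverse co-culture 317 of 12827 genes passed (2.47%), 1.08% of them higher and 1.39% lower as shares of all tested, and 0 of the 6 members tested did. Under median-ratio scaling the calls changed from 139 higher and 178 lower to 179 and 145. At an unadjusted p under 0.05 were 14.8% of genes, among them 1 member, Saa3. Its level was 66.8 ± 33.2 FPKM against 22.7 ± 6.00 in controls (SD, n = 3), a difference of 1.41 (SE 0.39, limma adjusted p = 0.119). The groups overlapped only through co-culture library 3, with 28.5 FPKM against 29.2 in control 2. Without that library, which also had the lowest macrophage sum (32.5 FPKM), the difference was 1.93 and passed (limma adjusted p = 0.00357). H2-Ab1 differed by 0.38 (SE 0.67) and turned to -0.44 without the same library. Epithelial tumour cell markers, at most 0.370 FPKM in sum in these controls, were at 1.92 FPKM or more in each co-culture, and their part in these values was not tested.

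After 72 h of inverse co-culture, H2-Ab1 averaged 5.49 FPKM against 1.10 in controls, yet its replicates spread too widely for the difference of 1.65 (SE 0.68) to pass (limma adjusted p = 0.142). All the other class II members tested were nearer to 0, with Cd74 at 0.51 (SE 0.41), H2-Eb1 at 0.63 (SE 0.41), H2-DMb1 at 0.12 (SE 0.13) and H2-DMa at -0.69 (SE 0.46), and Saa3 stood at -0.34 (SE 0.69). Of 13066 genes 1678 passed (12.8%), 3.27% higher and 9.57% lower, and 0 of 6 members, while 32.2% had an unadjusted p under 0.05, among them 1 member, H2-Ab1. The calls, 427 higher and 1251 lower, became 746 and 686 under median-ratio scaling and 677 and 677 under quantile normalization, and the median of all genes went from -0.16 to -0.01 under the first. Co-culture library 2 differed from the other 2 in both directions, with less H2-Ab1 (1.03 FPKM) and more H2-DMa (5.05 FPKM). Without it 2 members passed in limma, H2-Ab1 with a difference of 2.46 (adjusted p = 0.0156) and H2-DMa with -1.22 (adjusted p = 0.0475). Ciita, which was too low to be tested, had means of 0.104 and 0.282 FPKM in co-culture and control, and was lower in all 3 co-cultures than in all controls, as were 28.8% of the genes tested. Epithelial tumour cell markers were again higher in the co-cultures, at 1.5 FPKM or more in sum against at most 0.338 in controls, and their part was not tested either.

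**Figure D3:**
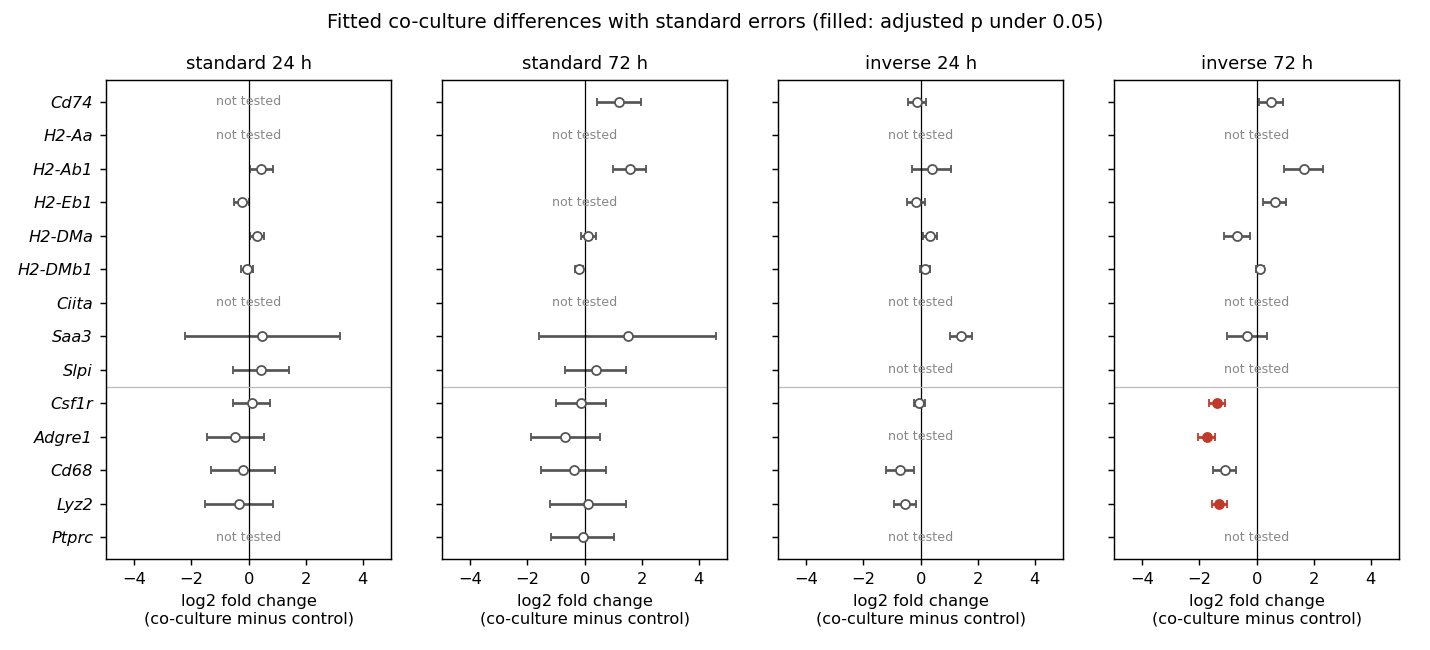
Log2 fold change (co-culture minus control, horizontal axis) of the 9 members and 5 macrophage transcripts in the 4 comparisons, with bars of 1 standard error, filled red where the limma adjusted p was under 0.05 and marked as not tested where a gene failed the filter. No member is filled in any comparison, and Csf1r, Adgre1 and Lyz2 are filled, below 0, in the inverse model at 72 h.

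Macrophage transcripts were lower in co-culture than in controls of the inverse model at 72 h, the co-culture group with the highest mean of H2-Ab1. Of 15 macrophage markers tested 11 fell and 0 rose (median -1.44 beside -0.16 over all genes, and 15 below 0 under either other scaling too), among them Csf1r (-1.39, SE 0.29, limma adjusted p = 0.0222), Adgre1 (-1.75, SE 0.30, adjusted p = 0.0132), Lyz2 (-1.30, SE 0.25, adjusted p = 0.0185) and the complement genes C1qa and C1qb. Csf1r measured 5.13, 5.44 and 7.86 FPKM in controls and 2.29, 2.72 and 1.24 in co-culture, and Adgre1 2.61, 1.98 and 3.55 against 0.314, 0.559 and 0.454, without overlap. Summed over the 20 markers the controls ranged from 179 to 351 FPKM and the co-cultures from 75.8 to 114. At 24 h these sums were 95.5 to 110 FPKM in controls and 32.5 to 116 in co-cultures. The co-culture sums at 72 h thus lay within their range at 24 h, while those of the controls were higher at 72 h. The number of markers that passed rested on single libraries, since 1 passed without control 1, 1 without co-culture 1 and 0 without control 3, and between 9 and 11 without each of the others. At 24 h of inverse co-culture 13 of 14 macrophage markers tested lay below 0, 1 lay above and 0 passed. Adgre1, too low to be tested there, averaged 0.261 FPKM against 0.997 in controls. The part of macrophage transcripts in the members' values was not tested.

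The inverse controls changed between 24 h and 72 h, and Saa3 was the only member called in any of the comparisons made. It rose by 2.20 (SE 0.44, limma adjusted p = 0.0108), from 22.7 ± 6.00 to 119.8 ± 66.6 FPKM (SD, n = 3), and was higher in all 3 libraries at 72 h than in all at 24 h. Of 5 members tested 1 rose, against 10.2% of 13092 genes that rose, 9.05% that fell and 19.2% in all, and 22.8% of genes were higher in all libraries. The call held without each library in turn (differences of 1.83 to 2.79), but in limma it was lost when all 24 libraries shared 1 estimate of the spread (adjusted p = 0.642) or when no filter on low values was set (adjusted p = 0.0505). Lcn2 and Hp, further acute-phase genes, rose with it (2.26, SE 0.37, and 0.98, SE 0.24), and so did 13 of 15 macrophage markers (median 1.34), with Csf1r at 0.69, Adgre1 at 1.08 and Lyz2 at 1.22. The part of the macrophage transcripts in the rise of Saa3 was not tested. Ciita went from 0.0899 to 0.282 FPKM, without overlap and untested, while H2-Ab1 (-0.65, SE 0.39) and H2-Eb1 (-0.57, SE 0.35) did not pass. In the standard controls 0 of 7 members passed between the time points, as did 0 of 12963 genes (0.0%, 127 or 0.98% at an unadjusted p under 0.05).

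The difference between the models was then tested directly. The co-culture effect on H2-Ab1 differed between inverse and standard by -0.06 (SE 1.01) at 24 h and 0.08 (SE 1.01) at 72 h, and that on Cd74 by -0.39 (SE 1.08) and -0.71 (SE 1.08). Of 7 members tested 0 passed at either time, as did 0 of 14452 genes (0.0%, with 182 or 1.26% and 501 or 3.47% at an unadjusted p under 0.05). With the replicate number as a block 0 of these genes passed at 24 h and 16 at 72 h, and 0 members at either time. The change of the co-culture effect from 24 h to 72 h was 1.13 (SE 0.75) for H2-Ab1 in the standard and 1.27 (SE 1.08) in the inverse model. Neither passed, and 0 members and 0 of all genes did (0.0% in each, with 1.03% and 10.7% at an unadjusted p under 0.05). In the same test of the inverse model Saa3 had -1.75 (SE 0.90, limma adjusted p = 0.498). The co-culture values for Saa3 in this model share their controls with the rise over time described above. H2-DMa was higher in all inverse than in all standard controls at 24 h (means 2.55 and 1.65 FPKM) and at 72 h (3.88 and 2.43 FPKM), as were 4.65% and 11.1% of the genes tested, and neither difference passed (0.48, SE 0.27, and 0.60, SE 0.29). Between the controls of both models 0 members and 0 genes passed at either time (0.0%, with 1.74% and 6.18% at an unadjusted p under 0.05).

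Genes that work beside class II were read from lists. Transcripts of the DNA-binding and partner proteins at the X and Y boxes were present throughout, unlike those of Ciita. Of 8 genes on this list 7 were tested, and 0 passed in any of the 4 comparisons. The share of all tested genes that passed was 0.0% at either time of the standard model. For the inverse model this share was 2.47% (24 h) and 12.8% (72 h), so a count of 0 among 7 carries little information. Nfyc, which binds the Y box, and Creb1, which binds the X2 box, had means of 28.4 and 21.7 FPKM over all libraries, and Rfx5, of the complex at the X1 box, had 9.50 FPKM (range 6.20 to 12.7). Transcripts of cathepsins were abundant too, with Ctsb at 632 and Ctsl at 542 FPKM on average. Ctss, the cathepsin that cuts the invariant chain in macrophages and dendritic cells, is also on the macrophage list. It was lower by 1.32 in co-culture than in controls of the inverse model at 72 h (SE 0.24, limma adjusted p = 0.0163). Co-cultures measured 2.69, 4.32 and 2.49 FPKM and controls 8.78, 6.71 and 10.2. Ctss was 1 of 6 genes tested of peptide loading and turnover, and this call was lost without co-culture 1, control 1 or control 3.

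Cd80, a costimulatory ligand for CD28 on T cells, rose in the inverse model at 72 h. It measured 1.65, 0.903 and 1.70 FPKM in controls and 5.82, 5.43 and 7.20 in co-culture, a difference of 1.81 (SE 0.25, limma adjusted p = 0.00729). The call held without each library in turn and under median-ratio scaling. At 24 h its values were 1.62, 1.47 and 2.05 against 4.22, 3.39 and 6.93 FPKM (difference 1.23, SE 0.27, limma adjusted p = 0.0571), which do not overlap but did not pass. In the standard model each co-culture was above the control of its own number, with 4.31, 3.26 and 2.17 FPKM against 2.03, 1.70 and 0.902 at 72 h. No gene of the costimulation list passed there. Icosl, the ligand of ICOS, rose in the inverse model at 24 h by 1.15 (SE 0.24, limma adjusted p = 0.0447) from 2.21, 1.36 and 1.83 to 3.70, 4.46 and 5.69 FPKM. This call was lost in 10 of 15 alternatives, among them median-ratio scaling and leaving out any 1 library other than co-culture 1. The list of 10 genes for T cell costimulation also holds inhibitory ligands, such as Cd274 and Vsir. Of the 10, 6 were tested in either inverse comparison, and 1 rose and 0 fell in each. Of all genes tested 1.08% rose and 1.39% fell at 24 h, and 3.27% rose and 9.57% fell at 72 h. Cd86, the other ligand of CD28, was at 0 in 12 libraries and at most 1.92 FPKM.

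**Figure D4:**
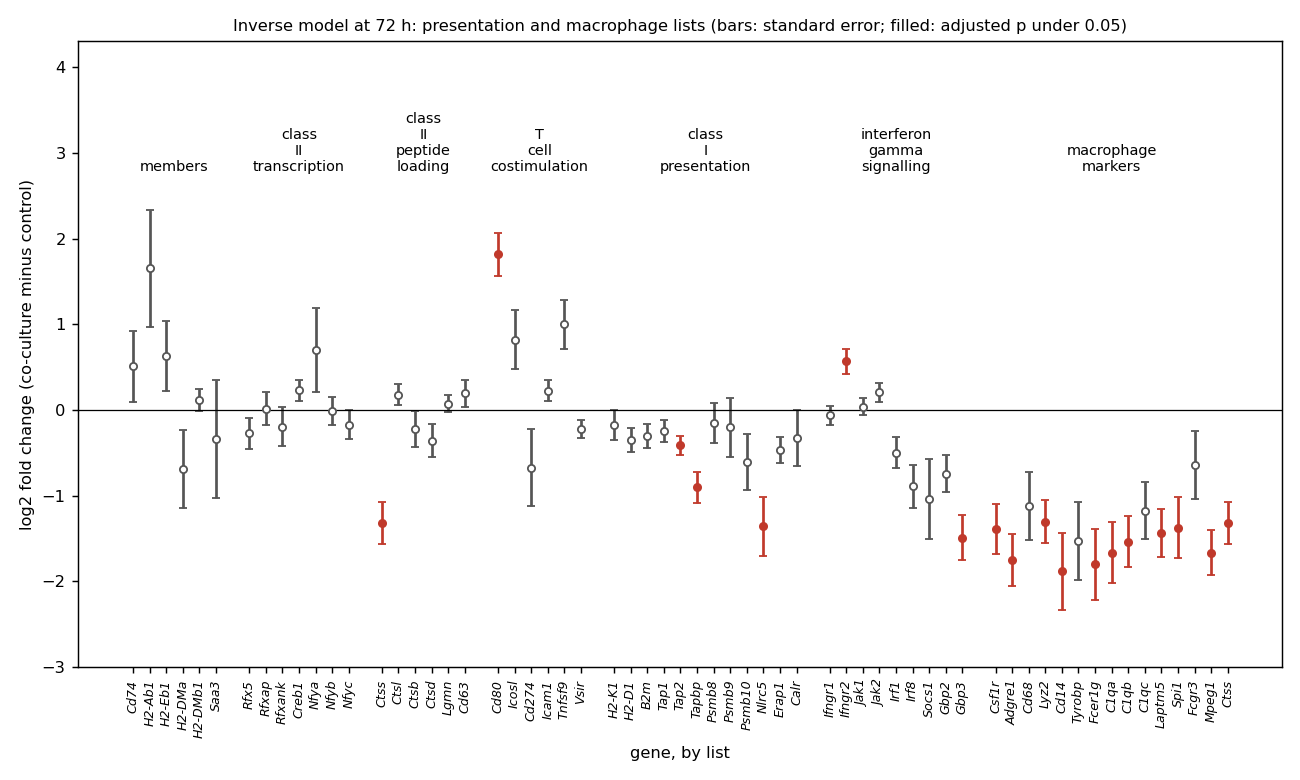
Log2 fold change (co-culture minus control, vertical axis) with bars of 1 standard error for the genes tested of 7 lists in the inverse model at 72 h, filled red where the limma adjusted p was under 0.05. The members straddle 0 with open symbols, and Cd80 stands above the other genes of the costimulation list at 1.81. All 12 class I genes lie below 0 (11 under median-ratio scaling and 10 under quantile normalization), and the macrophage markers have the lowest median of the 7 lists (-1.44).

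Class I presentation, which nearly all nucleated cells carry out, was expressed at higher levels per length than class II. H2-K1 averaged 176 FPKM, H2-D1 271 and B2m 482. In the inverse model at 72 h 3 of 12 class I genes fell and 0 rose, while 9.57% of all genes tested fell and 3.27% rose. The 3 were Tap2 (-0.41, SE 0.11), Tapbp (-0.90, SE 0.18) and Nlrc5 (-1.36, SE 0.34). Tap2 carries peptides into the endoplasmic reticulum, Tapbp loads them and Nlrc5 is the coactivator of class I genes. The median of the list was -0.34 beside -0.16 over all genes, with 12 of 12 below 0, 11 under median-ratio scaling and 10 under quantile normalization. These calls rested on single libraries, since 0 of the 12 passed without co-culture 1, control 1 or control 3. Only Tapbp passed under median-ratio scaling, which moves the median of all genes to -0.01. Macrophage markers were lower than in controls in the same co-cultures. H2-K1, H2-D1 and Tapbp had their highest levels of all 24 libraries (365, 611 and 195 FPKM) in standard control 2 at 72 h, which also had the most Csf1r. The part of macrophage transcripts in the class I values was not tested. Nlrc5 and Ciita are related coactivators, and both were lower in all 3 co-cultures than in all controls, as were 28.8% of the genes tested. Nlrc5 was at 0.719, 1.20 and 0.558 against 3.59, 3.54 and 1.73 FPKM. Of 9 interferon gamma signalling genes tested in the inverse model at 72 h, 1 rose and 1 fell, beside the same 3.27% and 9.57% of all genes. Ifngr2, a chain of the receptor, rose (0.57, SE 0.14, limma adjusted p = 0.0411). Gbp3, a guanylate-binding protein that interferon gamma induces, fell (-1.49, SE 0.26, limma adjusted p = 0.0140). The call of Ifngr2 was lost in 7 of 16 alternatives, including the loss of any 1 library other than control 3, and that of Gbp3 in 3, including the loss of control 1 or control 3. None of the class I and interferon gamma genes tested passed at 24 h of inverse co-culture or at either time of standard co-culture.

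Among 9 relatives of Saa3 and Slpi in the acute phase and in protease inhibition, Lcn2, an iron-binding lipocalin, rose at 24 h of inverse co-culture by 1.35 (SE 0.29, limma adjusted p = 0.0485), as 1 of 2 tested, a call lost in 10 of 16 alternatives, including the loss of any 1 library other than control 3. At 72 h it was at -1.13 (SE 0.35, limma adjusted p = 0.0727) and Hp, haptoglobin, at -1.29 (SE 0.42, adjusted p = 0.0799). Of the stellate cell markers Col3a1 (0.59, SE 0.11) and Pdgfra (0.53, SE 0.09) rose and Acta2, the smooth muscle actin of activated stellate cells, fell (-1.01, SE 0.11) at 24 h of inverse co-culture, and Pdgfra rose at 72 h (0.38, SE 0.10). The call of Acta2 was lost in 2 of 16 alternatives, those of Col3a1 and Pdgfra at 24 h in 9 and 8, and that of Pdgfra at 72 h in 11, including the loss of any 1 library. Krt19, an epithelial and mesothelial keratin, rose at 72 h (2.03, SE 0.40, limma adjusted p = 0.0189), from at most 0.176 FPKM in controls to 1.83, 1.17 and 3.11 in co-culture. It did not pass when any 1 control was left out, and was too low to be tested when any 1 co-culture was.

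The genes most like the members were found over 24 libraries among 14452 genes above 1 FPKM in at least 3 of them. The mean log2 level of Cd74, H2-Aa, H2-Ab1 and H2-Eb1 was most like Tnfsf8, the ligand of CD30 (Pearson r 0.78), Lsp1, an actin-binding protein of leukocytes (0.77), Myc (0.76), Dtnb (0.75), Igf2bp2 (0.74), Spon2 and Mgl2, a lectin of macrophages and dendritic cells (both 0.72), Ier3 and Srrm4 (both 0.71) and Gm42793 (0.70). Csf1r stood at place 2504 (r 0.18) and Adgre1 at place 2866 (r 0.15) in the same order. Over the whole macrophage list the places ran from 324 (Mrc1, r 0.48) to 4930 (Cd14, r 0.0064). Saa3 was most like Cp, ceruloplasmin (0.98), Gdpd2 (0.96), Lbp, the lipopolysaccharide-binding protein (0.96), Serping1, the C1 inhibitor (0.95), and H2-K1 (0.95), and Lyz2 stood at place 343 (r 0.81). Slpi was most like Cxcl13, a chemokine for B cells (0.98), Lrrn4 (0.97), Angptl7 (0.97), Gpm6a (0.96) and Bnc1 (0.94). In its order the macrophage list ran from place 10 (Mrc1, r 0.89) to place 329 (Csf1r, r 0.64). Lrrn4 and Gpm6a are on the list of 12 mesothelial markers, whose genes had unlike patterns. Of its other genes, Upk3b and Upk1b were highest in standard controls numbered 2, at 24 h and at 72 h. Cldn15 was lowest in standard control 2 at 24 h and highest in inverse co-culture 2 at 72 h, and Wt1 was at 12.7 FPKM or more throughout. Lrrn4 measured between 1.93 and 4.07 FPKM in standard libraries numbered 2 and 3 and at most 0.186 in all the others, which is the division that Slpi has, with 1.02 to 5.75 and at most 0.351 FPKM. These correlations were ranked over points that share replicate numbers and depth, and they are a description.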

How the data were processed

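RNA of 24 PSC libraries was sequenced. Per the paper's methods the authors called bases with CASAVA, aligned read pairs with HISAT2 2.0.5 to GRCm38.p6 and counted them with featureCounts 1.5.0-p3 at defaults, which disregard the strand. The authors deposited FPKM values of 53801 genes, and their DESeq2 1.20.0 results were not used. The annotation release is not given in the sources used here, and 53706 genes matched GENCODE M21. FPKM is scaled to each library's total only. Between 95.6% and 96.5% of low values were whole multiples of 1 fragment (within 0.02 fragments), which gave the depth.

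Values were compared with limma 3.58.1 (R 4.3.3), moderated with an intensity trend, two-sided, on log2(FPKM + 0.5) of genes above 1 FPKM in at least 3 libraries of the fit, Benjamini-Hochberg adjusted, with 0.05 as the limit. Each co-culture was compared with its control over 6 libraries, differences between effects over 12 or 24. An exact permutation test of 3 against 3 cannot go below 0.1. The study calls its replicates biological, but the labels do not tie them to isolations, so p-values measure the spread between these libraries. In the standard model same-numbered libraries deviated together (r 0.39 to 0.77 over genes, every pair above 0.1), so a fit with the number as a block was run beside the main one. This pairing comes from the data and not from the labels.

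The members and 15 further gene lists were chosen with earlier results of these data known. A further gene and the mutant alleles of the KPC cells are not reported here. Genes named are the members, 5 macrophage transcripts, list genes that passed in a co-culture comparison or otherwise the 2 most abundant of a list, and the genes most alike. Rfx5, Ctsl, Cd86 and other untested or abundant list genes, and the ratios of same-numbered libraries, were chosen after their values were seen. Alternatives were pseudocounts of 0.1 and 1, no filter or one at 5 FPKM, median-ratio and quantile scaling, no trend, all 24 libraries, the block and each library left out. voom on recovered fragments and leaving out number 2 were added after seeing the data. Scripts were tested on simulated data. Plots were drawn with matplotlib 3.10.9, and tables were made in Python 3.11.15 with scipy 1.17.1, pandas 2.3.3 and numpy 2.4.6.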

Additional observations from a re-analysis of the deposited data

How the results depend on the processing

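In the main fits 0 members were called in every comparison but that of inverse controls over time. Where no gene of all tested passed either, a repeated count of 0 carries little information. The number of members called was the same as in the main fit in 212 of 216 recalculations. In the inverse model it ranged from 0 to 1 at 24 h when each library was left out and from 0 to 2 at 72 h, and Saa3 in inverse controls over time was lost, leaving 0, with all 24 libraries in 1 model and with no filter; the cause was not tested. The replicate block changed no member's call. In the inverse model same-numbered libraries did not deviate together (r -0.12 to 0.12), so the data showed no pairing there. Whether they share an isolation cannot be told from this. In that model the block left 88 of 317 calls among all genes at 24 h, 902 of 1678 at 72 h and 1993 of 2516 in controls over time. In the same order, the calls among all genes were 11, 897 and 225 with all 24 libraries in 1 model, 50, 888 and 1425 with no filter, 98, 1310 and 1993 with no intensity trend and 525, 2097 and 3072 with voom, and without each library they ranged from 67 to 412, 368 to 1637 and 1243 to 2369. Macrophage markers that passed in the inverse model at 72 h numbered 11, and 5 with the block. Of the recalculations of single genes 855 kept direction and side of the threshold, 174 lost and 5 gained a call, and 43 changed direction, none of them a gene that passed. Such turns under other settings were Csf1r in standard co-culture at 72 h without number 2 (0.37), Ptprc there under median-ratio scaling (0.00988), a pseudocount of 0.1 (0.20) and voom (0.66), and Csf1r in inverse co-culture at 24 h under median-ratio scaling (0.0017) and quantile normalization (0.021). Leaving out each library gave these ranges of log2 differences where a direction turned. In standard co-culture at 24 h they were -0.16 to 0.11 for H2-DMb1, -1.65 to 2.77 for Saa3, -0.24 to 1.32 for Slpi, -0.38 to 0.67 for Csf1r, -1.06 to 0.80 for Cd68 and -1.32 to 0.73 for Lyz2. At 72 h they were -0.11 to 0.27 for H2-DMa, -1.70 to 3.73 for Saa3, -0.44 to 1.28 for Slpi, -0.79 to 0.83 for Csf1r, -1.63 to 0.37 for Adgre1, -1.26 to 0.70 for Cd68, -1.03 to 1.43 for Lyz2 and -1.05 to 0.91 for Ptprc. In inverse co-culture they were -0.20 to 0.071 for Cd74, -0.44 to 1.15 for H2-Ab1, -0.40 to 0.075 for H2-Eb1, -0.13 to 0.054 for Csf1r and -0.86 to 0.0028 for Lyz2 at 24 h, and -0.94 to 0.40 for Saa3 at 72 h. No library held more than 6 fragments of H2-Aa, so a difference in it was not detectable at this depth.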
